A study of Fundulus heteroclitus with 36 samples.

Results

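The genes described here are the glutathione, thioredoxin and selenoprotein genes of the Atlantic killifish, Fundulus heteroclitus, an estuarine fish. They were taken by RefSeq symbol: glutathione transferases, peroxidases and synthesis enzymes, glutaredoxins, thioredoxins, peroxiredoxins, selenoproteins, superoxide dismutases, deiodinases, methionine sulfoxide reductases, haem oxygenases, the quinone reductase nqo1, and the NRF2 and KEAP1 genes. The symbols txnip and txnl were left out. The choice yielded 68 of 31637 genes. A further 17443 genes of the annotation carry only a locus number, so relatives without a symbol are not among the 68, and no member is named catalase (cat).

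Cells keep reactive oxygen and electrophiles in check with a pair of thiol systems. Glutathione is built in steps of which the first, run by glutamate-cysteine ligase (catalytic subunit gclc, modifier subunit gclm), limits the rate; transferases, peroxidases and glutaredoxins then spend it. Thioredoxin hands electrons from thioredoxin reductase to peroxiredoxins and other targets, and several enzymes of both systems carry selenocysteine. In mammals the transcription factor NRF2, held back by KEAP1, drives gclc, gclm, txn and nqo1, and nqo1 is also a target of the aryl hydrocarbon receptor, through which the dioxin-like biphenyl PCB126 acts.

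RNA came from the whole brains of single embryos at 17 days post fertilization, 36 libraries in 6 groups of 6. NBH embryos descend from fish of New Bedford Harbor, Massachusetts, and SCO embryos from fish of Scorton Creek, Massachusetts. NBH PCB40 and NBH PCB400 embryos were held in 40 and 400 ng/L PCB126 on days 1 to 7 and NBH Control embryos were not; SCO PCB40 embryos had 40 ng/L, against SCO Control. The design text takes the PCB126 embryos from parents fed the low-methylmercury salmon diet, and gives the same diet for the control stock of both populations. SCO Hg Fed embryos had parents on the high-methylmercury tuna diet and no PCB126 of their own. The labels name neither the parent pairs nor any batch, so p-values measure the spread between these embryos, which may share parents. Whole brains mix cell types, so fewer cells of a type and less RNA per cell cannot be told apart.

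Libraries held 38.51 to 66.45 M assigned reads (median 52.85 M). Levels of 1 gene are compared between embryos in CPM, read counts scaled to library size with TMM factors. Levels of different genes are compared in the deposited TPM, which are also scaled by transcript length. A gene is called where the adjusted p of edgeR's quasi-likelihood test, over 23292 genes, is under 0.05; ± is the standard error of a log2 fold change. The PCB126 marker CYP1A, a cytochrome P450 induced through the aryl hydrocarbon receptor, averaged 6.47, 80.3 and 396 CPM in NBH Control, PCB40 and PCB400 brains; in SCO brains it averaged 146 CPM after PCB40, 3.32 CPM in the Hg Fed group and 4.71 CPM in controls. Libraries differed in how expression ran with transcript length. The slope of a library's log2 deviation on log2 length was -0.172 to 0.151 in NBH PCB40, -0.099 to 0.163 in NBH PCB400, -0.185 to 0.198 in SCO PCB40 and 0.004 to 0.12 in SCO Hg Fed. It was -0.116 to -0.035 in NBH Control and 0.016 to 0.137 in SCO Control. A negative slope means higher values of short transcripts, and the 66 members tested are short, with a median effective length of 1014 bases against 2090 for all genes. Values with that trend removed stand beside some of the results on members. No such fold changes are given for single genes outside the members. None are given either for the comparison of the PCB40 response between the populations.

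The electron carrier thioredoxin, txn, was the most abundant member. It averaged 1461 TPM over the 36 libraries, followed by gpx4a at 820.3 TPM, a selenoenzyme that reduces lipid hydroperoxides within membranes, and the copper-zinc superoxide dismutase sod1 at 660.4 TPM. Of the most abundant members of the other classes, the endoplasmic reticulum selenoprotein selenot1a averaged 479.8 TPM, the glutaredoxin glrx 417.8 TPM, the peroxiredoxin prdx2 284.3 TPM and the thioredoxin domain gene txndc9 247.3 TPM. The leading members of some classes were far lower: nfe2l2a, which encodes NRF2, averaged 7.07 TPM, the thyroid hormone deiodinase dio1 9.95 TPM, the haem oxygenase hmox2b 16.5 TPM and gclc 17.1 TPM. The transferase gsta.1 averaged 75.7 TPM and the methionine sulfoxide reductase msrb2 32.0 TPM. The lowest members, selenoo2, keap1a, keap1b, gpx9 and nqo1, averaged 0.00355 to 0.341 TPM. All 68 genes together made up 0.677 to 1.04% of a library's TPM.

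A filter on low counts removed 2 members. gpx9 had at most 3 reads in 19 of 36 libraries, and selenoo2 had none in 30. Of the 68, 53 have a single annotated transcript and 15 have more, and counts were summed over transcripts.

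Members differed widely in how steady they were between embryos of a group. The within-group SD of log2 CPM was 0.15 for the mitochondrial glutaredoxin glrx5, 0.17 for prdx2 and 0.25 for txn, at the 2.3, 4.2 and 17.9 percentiles of all genes tested. The spread was widest for txndc12, an endoplasmic reticulum oxidoreductase, at 1.29 (94.8 percentile), and it was 0.78 for gpx4a in spite of its abundance (81.7 percentile). Among SCO Control embryos txndc12 lay between 0.912 and 10.1 CPM, and among SCO Hg Fed embryos gpx4a lay between 149.6 and 1100 CPM.

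**Figure D1:**
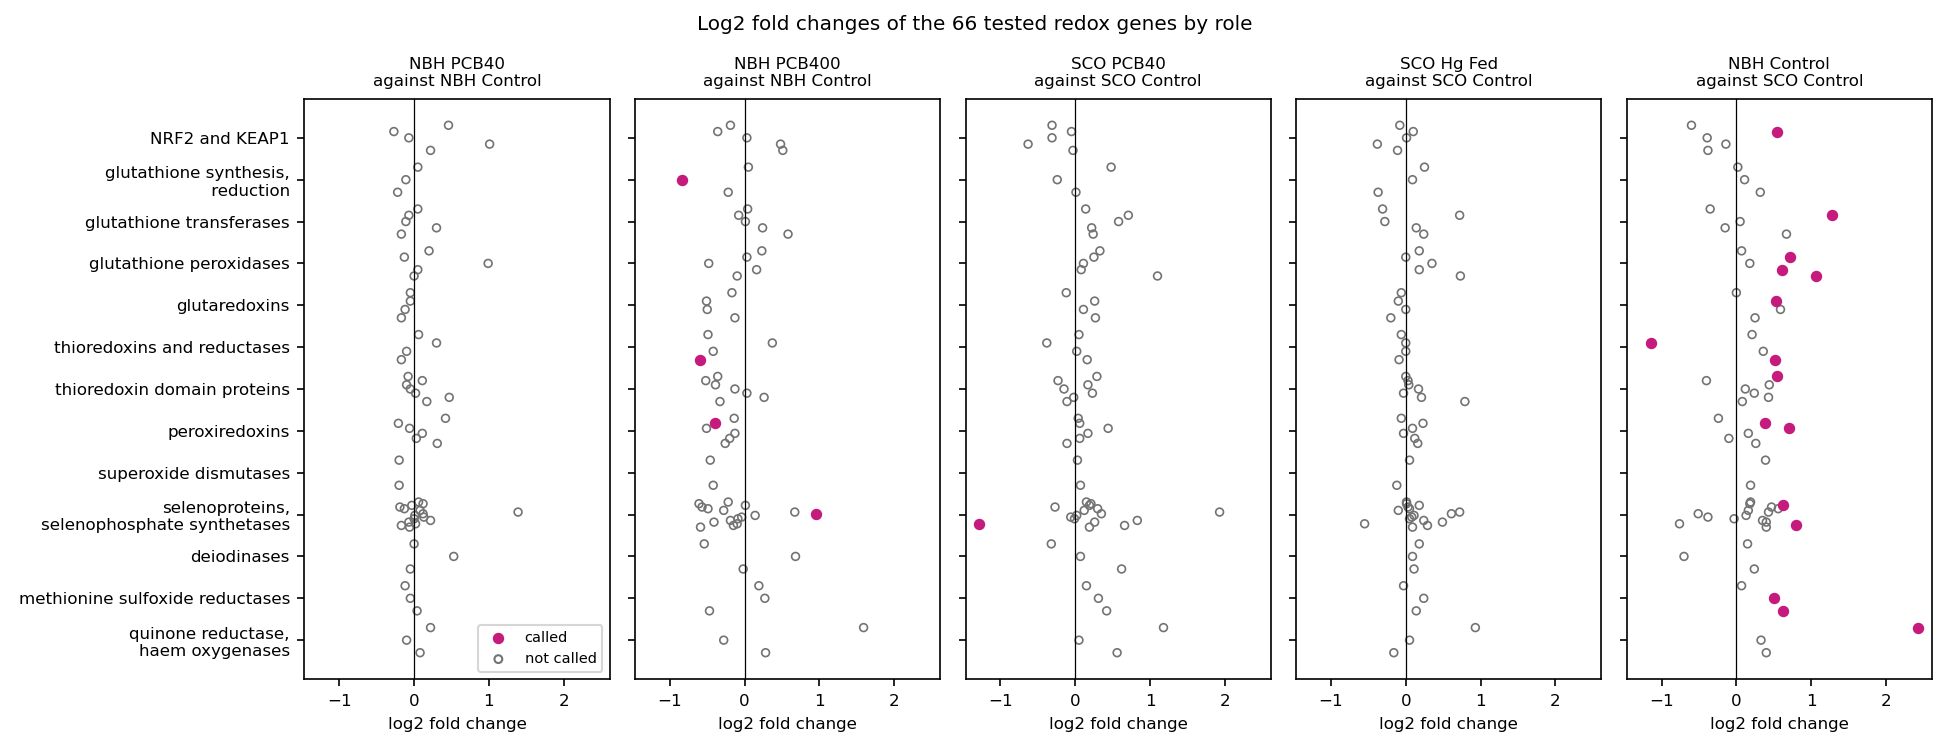
Log2 fold change (horizontal axis) of the 66 tested members in 5 comparisons, arranged by role from top to bottom; each point is a gene, filled where called and open where not. No member was called for NBH PCB40 or SCO Hg Fed, 4 for NBH PCB400, 1 for SCO PCB40 and 16 between the control groups, 15 of them to the right of 0.

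In New Bedford Harbor brains the high PCB126 dose was accompanied by lower gclm and txn. The count of members called was 4 of 66 (6.06%), 1 higher and 3 lower, where 3.74% of all 23292 genes were called, 1.43% higher and 2.31% lower. The modifier subunit of glutamate-cysteine ligase, gclm, had 14.9, 19.4 and 32.2 CPM as its lowest, median and highest in NBH PCB400 embryos, against 27.5, 35.1 and 51.4 CPM in NBH Control embryos. Of the 6 PCB400 embryos, 5 lay under every control, and the sixth lay within the range of the controls. The level fell to 55.9% of the control mean, a log2 fold change of -0.84 ± 0.18 (adjusted p = 0.00981). Every alternative tried kept this call, with log2 fold changes of -0.99 to -0.74 and an adjusted p of at most 0.0413.

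The catalytic partner gclc was not called. It had 21.97, 46.9 and 51.2 CPM as lowest, median and highest in NBH PCB400 embryos, against 38.1, 47.0 and 63.4 CPM in NBH Control embryos. The groups overlapped with nearly the same median, and the fold change was -0.22 (95% interval -0.66 to 0.22, adjusted p = 0.606). The ratio of the subunits' changes was not itself tested. nqo1 was scarce, at 0.234 to 3.2 CPM in NBH PCB400 and 0.025 to 0.741 CPM in NBH Control embryos, where 3 reads correspond to 0.0452 to 0.0779 CPM. Its lowest control was under that level, and every PCB400 embryo was above it. Its fold change of 1.59 (interval 0.21 to 2.97) was not called (adjusted p = 0.171), and 1 embryo at 3.2 CPM stood above the rest.

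txn, which supplies electrons to peroxiredoxins and ribonucleotide reductase, had 421, 494 and 532 CPM as lowest, median and highest in NBH PCB400 embryos, against 685, 718 and 825 CPM in NBH Control embryos. All 6 PCB400 embryos lay under all 6 controls. It fell by 0.60 ± 0.14 on the log2 scale (adjusted p = 0.0184), to 66% of the control mean. With the length trend removed the change was -0.44 (adjusted p = 0.0125). The call was lost without PCB400 replicate 2 (-0.56, adjusted p = 0.0585) or without PCB400 replicate 5 (-0.58, 0.0551).

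The calls of prdx5 and selenop were lost in more of the alternatives, 9 and 10 of them, not counting the one that asks for a fold of at least 1.5. The prdx5 change was under that fold as well. prdx5, a peroxiredoxin of mitochondria, peroxisomes and cytosol, ran from 141 to 172 CPM in NBH PCB400 and from 166 to 229.6 CPM in NBH Control embryos. Only the lowest control overlapped the PCB400 range, and the fall was 0.39 ± 0.11 on the log2 scale (-0.39, adjusted p = 0.0375). With the length trend removed it was -0.23 and no longer called (adjusted p = 0.0984), nor was it without NBH Control replicate 1, 2, 3 or 4 or PCB400 replicate 2, 3 or 5 (adjusted p up to 0.105). The slope as a covariate also took the prdx5 call away. selenop, the secreted selenium carrier that supplies the brain in mammals, ran from 82.4 to 189 CPM with a median of 101.9 in NBH PCB400 embryos, against 39.5 to 89.3 CPM with a median of 58.7 in NBH Control embryos. It rose by 0.96 ± 0.27 (adjusted p = 0.0383), yet 2 of the controls reached into the PCB400 range. Leaving out any of 7 single libraries (NBH Control 1, 4, 5 or 6, or NBH PCB400 1, 2 or 5) took the selenop call away, at 0.80 to 0.98 with adjusted p up to 0.129. That call was also lost with the slope as a covariate, without the libraries of steep slope and with only the groups compared.

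Counting called and uncalled members together, 43 of 66 had a fold change under 0 (median -0.15, against 0.05 for all genes). With the length trend removed the median was -0.08 and 38 lay under 0. At an unadjusted p under 0.05 there were 22 members, 20 of them lower, where 20.6% of all genes reached that p, 2453 of them higher and 2356 lower. Over all genes 44.9% had a value under 0. The classes differed: all 6 peroxiredoxins, all 4 glutaredoxins, both superoxide dismutases and 12 of 16 selenoproteins and selenophosphate synthetases were under 0, while 4 of 5 glutathione transferases, 3 of 5 glutathione peroxidases and 2 of 3 methionine sulfoxide reductases were above 0. Among these classes prdx5 and selenop were the members called. 7 members had PCB400 embryos that did not overlap the controls at all, each of them lower (txn, sephs1, prdx4, glrx3, selenof, txn2 and txndc9), where 2.28% of all genes were lower without overlap. sephs1, a selenophosphate synthetase homologue, was next to the threshold: 51.2 to 87.4 CPM in NBH PCB400 embryos against 89.9 to 146 CPM in NBH Control embryos, with no overlap (-0.61 ± 0.18, adjusted p = 0.051). DESeq2 called it lower (adjusted p = 0.0233). So did edgeR with the length trend removed (-0.62, 0.0475), a replicate block (0.048), only the groups compared (0.0328) or the 6 libraries of steep slope left out (0.0369). Neither limma voom nor the slope as a covariate called it.

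The count of called members moved when 1 embryo was left out: it was 2 without NBH Control replicate 1 or 4 and 1 without NBH PCB400 replicate 2 or 5. The share of all genes called in these fits is not given, so the fall in the count cannot be read as particular to the members. Sums of cell type markers also differed between these groups. The 11 matched neuron markers summed to 5099 to 6074 CPM in NBH PCB400 brains, against 6731 to 7241 CPM in NBH Control brains, with no overlap. snap25a was the largest term of that sum, with medians of 1308 and 1894 CPM, and the single markers were divided, 5 above 0 and 6 below, with 1 called lower. The 9 oligodendrocyte markers (3 above 0 and 6 below, none called) summed to 1237 to 2008 against 1714 to 2388 CPM, and the 10 erythrocyte markers (9 above 0, none called) to 97.8 to 134.9 against 52.1 to 111 CPM. Of 10 microglia and leukocyte markers 6 were above 0 and 4 below, with 1 called lower (sums of 22.2 to 35.7 against 21.9 to 30.5 CPM). All 9 skeletal muscle markers were above 0 and 0 were called (27.5 to 171.1 against 18.9 to 108.6 CPM). Every matched marker of these lists exceeded 3 reads in some library, and their part in the result was not tested.

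**Figure D2:**
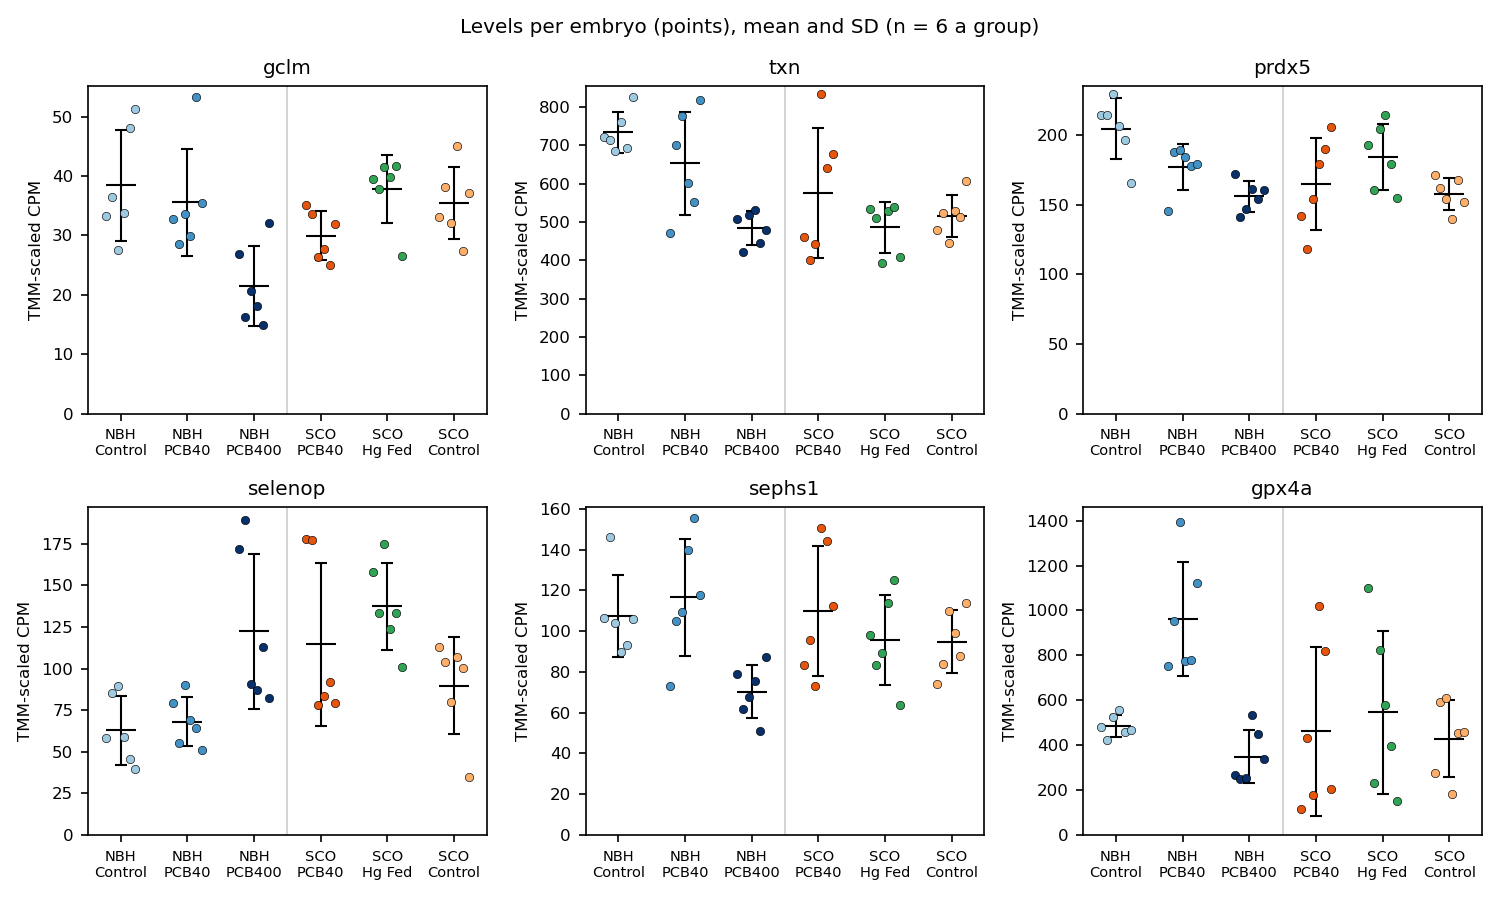
TMM-scaled CPM (vertical axes, from 0) of 6 members in every embryo; points are embryos, the dash is the mean and the bars 1 SD (n = 6). All 6 NBH PCB400 embryos lie under the NBH controls for txn, and the NBH PCB40 embryos stand between 752 and 1393 CPM for gpx4a, above both other NBH groups.

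The low dose in the same population called no member (edgeR 0 of 66; DESeq2 and limma voom 0; 2 at an unadjusted p under 0.05), and 0% of all genes were called, with 3.06% at an unadjusted p under 0.05. The marker CYP1A was not called by edgeR here either (3.63 ± 0.67, adjusted p = 0.112), although 5 of 6 PCB40 embryos lay above every control. A count of 0 is therefore not evidence of no response. Among the members the smallest p belonged to gpx4a, at 752, 867 and 1393 CPM as lowest, median and highest in NBH PCB40 embryos, against 421, 475 and 556 CPM in NBH Control embryos. The groups did not overlap, as for 1 of 66 members and 0.0644% of all genes in this direction, and the PCB40 mean was 1.98 times the control mean, but 0.99 ± 0.42 was not called (adjusted p = 1). The SD of gpx4a within a group ranged from 48.6 CPM in NBH Control to 376 CPM in SCO PCB40, and the model shares its spread over the 6 groups. With only NBH PCB40 and NBH Control in the model 0 members were called as well. The part of the shared spread in the result for gpx4a was not tested. prdx6, a peroxiredoxin that also handles phospholipid peroxides, averaged 65.6 against 48.9 CPM (0.42 ± 0.19), and selenop2 0.925 against 0.35 CPM (1.39 ± 0.69), both with an adjusted p of 1. gclm (-0.11, interval -0.47 to 0.25), gclc (-0.22, -0.66 to 0.23), txn (-0.17, -0.46 to 0.12) and nqo1 (0.22, -1.15 to 1.59) were not called either.

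Set directly against the low dose, NBH PCB400 brains had 3 members called (4.55%; 3.53% of all genes), all lower (2.41% of all genes were called lower). gclm fell by 0.73 ± 0.18 on the log2 scale (adjusted p = 0.023), and 5 of 6 PCB400 embryos lay under every PCB40 embryo. sephs1 ran from 51.2 to 87.4 CPM after PCB400 and from 73.1 to 155 CPM after PCB40, a fall of 0.73 ± 0.18 (adjusted p = 0.0258). gpx4a had 249, 303 and 533 CPM as lowest, median and highest after PCB400, against 752, 867 and 1393 CPM after PCB40. All 6 embryos of the high dose were below all 6 of the low dose, as for 2 members in all and 0.897% of all genes (-1.47 ± 0.42, adjusted p = 0.0466). With the length trend removed gpx4a was -1.34 (adjusted p = 0.0487) and sephs1 -0.73 (0.0223). With the slope as a covariate both calls were lost, at -1.14 (adjusted p = 0.123) for gpx4a and -0.49 (0.101) for sephs1. The gpx4a call was also lost with no filter (adjusted p = 0.0563) and without the 6 libraries of steep slope (0.0994). With only the groups compared, sephs1 (adjusted p = 0.0655) and gclm were lost. The gpx4a call was further lost without any one of PCB40 replicates 2 to 6 or PCB400 replicates 1, 2, 3 or 5 (adjusted p up to 0.112), gclm without PCB40 replicate 5 or PCB400 replicate 2 or 5 (up to 0.0948), and sephs1 without PCB40 replicate 4 or 5 or PCB400 replicate 2, 3 or 5 (up to 0.0938).

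Neither gclc (0.00, interval -0.44 to 0.44), txn (-0.43, -0.72 to -0.14, adjusted p = 0.0773) nor nqo1 (1.38, 0.01 to 2.74, adjusted p = 0.242) was called between the doses. This comparison and the one of PCB400 with the controls share the PCB400 embryos. One library weighed heavily: NBH PCB40 replicate 1 had the only positive length slope of its group (0.151) and its lowest txn, prdx4, prdx5, glrx3 and txndc9, and without it the count was 14, of which 13 lower and 1 higher. It was 6 without PCB400 replicate 6, 1 without PCB40 replicate 4 or PCB400 replicate 3, and 0 without PCB40 replicate 5 or PCB400 replicate 2 or 5. The share of all genes called in these fits is not given, so a rise in the count cannot be read as particular to the members. Without the 6 libraries of steep slope, PCB40 replicate 1 among them, 6 members and 6.68% of all genes were called.

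The difference of gpx4a between the NBH groups lay mainly in 1 of its annotated transcripts. The transcript of 992 bases had 417, 549 and 617 TPM as lowest, median and highest in NBH Control embryos, 886, 1210 and 1749 TPM in NBH PCB40 embryos and 231, 407 and 613 TPM in NBH PCB400 embryos. The transcript of 1000 bases kept within 136 to 197 TPM in those controls, 119.5 to 216 TPM after PCB40 and 90.9 to 239 TPM after PCB400. In SCO brains the 992-base transcript spanned 94.5 to 1157 TPM after PCB40, 122 to 1630 TPM in the Hg Fed group and 216 to 896 TPM in controls. Salmon divides reads between similar transcripts by estimation, so the split is less certain than the sum.

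**Figure D3:**
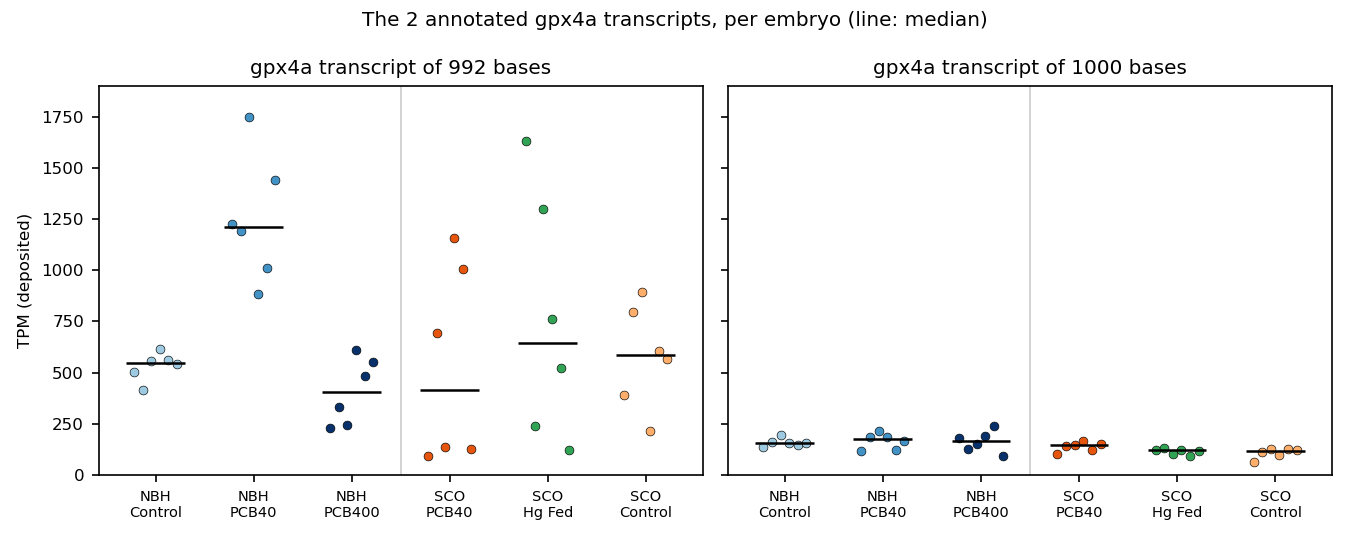
TPM (vertical axis, from 0) of the 992-base and the 1000-base transcript of gpx4a in every embryo, with the group median as a line. The 992-base transcript ranges from 94.5 to 1749 TPM and carries the difference between NBH doses; the 1000-base transcript stays at or under 239 TPM in all groups.

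Of the pathway genes outside the 68 (46 tested: NADPH supply, glutathione breakdown, NRF2 partners and selenocysteine insertion), 3 were called between NBH PCB400 and NBH Control, all lower (6.52%). Of all genes 3.74% were called there, 2.31% lower. chac2, which breaks down glutathione, fell by 0.76 (-0.76 ± 0.19, adjusted p = 0.0276), the thioredoxin-like txnl1 by 0.53 (adjusted p = 0.0442) and pgd, an NADPH-producing enzyme of the pentose phosphate pathway, by 0.48 (adjusted p = 0.0477). Between the doses 4 were called (8.7%, against 3.53% of all genes), mt2 higher and 3 lower. The metal-binding metallothionein mt2 averaged 452 CPM after PCB400 and 255 CPM after PCB40 (0.83 ± 0.19, adjusted p = 0.0207). txnl1 (-0.59, adjusted p = 0.0294) and chac2 (-0.73, adjusted p = 0.0339) followed. None was called for NBH PCB40 by edgeR, with 0 at an unadjusted p under 0.05.

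In Scorton Creek brains 40 ng/L PCB126 was accompanied by lower selenoi and by no other called member (1 of 66, 1.52%; 2.67% of all genes were called, 1.92% lower). selenoi encodes a selenoprotein that in mammals makes the phospholipid phosphatidylethanolamine. It had 1.66, 3.42 and 6.03 CPM as lowest, median and highest in SCO PCB40 embryos, against 6.54, 8.60 and 10.3 CPM in SCO Control embryos. All 6 exposed embryos were below all 6 controls, as in no other member and in 1.46% of all genes, and the level fell to 41.1% of the control mean (-1.28 ± 0.32, adjusted p = 0.0259). With the length trend removed it was -1.19 (adjusted p = 0.033). The call was lost with the slope as a covariate (-0.97, adjusted p = 0.0604), where selenof and selenot2 were called lower instead, and with only the groups compared (-1.26, 0.0719). It was also lost without SCO Control replicate 3 or 4 or SCO PCB40 replicate 3, 4 or 5, which left 0 members called, with adjusted p up to 0.0763.

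The cytosolic glutathione peroxidase gpx1a missed the threshold: 13.1, 25.6 and 43.1 CPM as lowest, median and highest in SCO PCB40 embryos, against 6.77, 11.7 and 26.2 CPM in SCO Control embryos (1.10 ± 0.32, adjusted p = 0.0523). The groups overlapped, and 1 control stood high at 26.2 CPM. gpx1a was called higher by DESeq2 (1.12, adjusted p = 0.0146), by limma voom (1.13, 0.0468) and by edgeR without the 6 libraries of steep slope (1.11, 0.012). With the length trend removed or the slope as a covariate it was not called. Leaving out SCO Control replicate 2 or SCO PCB40 replicate 1, 2 or 6 gave 2 called members. gclm (-0.24, interval -0.60 to 0.12), gclc (0.01, -0.43 to 0.46), txn (0.16, -0.13 to 0.45) and nqo1 (1.18, -0.37 to 2.73) were not called. nqo1 lay between 0.0624 and 0.278 CPM in SCO PCB40 and between 0 and 0.116 CPM in SCO Control embryos, where 3 reads correspond to 0.0452 to 0.0779 CPM.

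Of the 66 members 48 had positive values in SCO PCB40 brains (median 0.13). Those under 0 made up 27.3%, where 46.7% of all genes were under 0. With the length trend removed 36 members were positive and the median was 0.04, where all genes had a median of 0.03. With the slope as a covariate 30 were positive and the median was -0.02. The exposed group was itself divided by transcript length: replicates 4, 5 and 6 had slopes of -0.185 to -0.118, and replicates 1, 2 and 3 slopes of 0.019 to 0.198. prdx4 ran from 113 to 248 CPM in it, against 102 to 175 CPM in SCO controls. Cell type markers also differed. Of 9 skeletal muscle markers 4 were called higher and 1 lower (median log2 fold change 2.36), and they summed to 23.2 to 384.5 CPM in SCO PCB40 brains, against 22.2 to 52.9 CPM in SCO Control brains. Of 9 oligodendrocyte markers 8 were under 0 and 2 were called lower, with sums of 1527 to 2548 against 1440 to 2282 CPM. Of 10 microglia and leukocyte markers 2 were called higher (24.1 to 43.7 against 17.7 to 32.1 CPM), and of 10 erythrocyte markers 1 was called higher (116 to 223 against 46.6 to 188 CPM). The 8 matched pituitary markers summed to 0.508 to 286.8 CPM (median 0.694), against 1.05 to 217.8 CPM (median 98.0) in SCO Control. Their largest term, gh1, had medians of 0 and 53.9 CPM. Of 6 pituitary markers tested 5 were under 0 and 0 were called. The part of all these markers in the result was not tested. Among the pathway genes 2 of 46 were called (4.35%, against 2.67% of all genes). srxn1, which repairs overoxidized peroxiredoxins, rose to 2.89 CPM, against 1.60 CPM in controls (0.85 ± 0.23, adjusted p = 0.0401). secisbp2l, a relative of a protein that takes part in selenocysteine insertion, fell by 0.47 (-0.47 ± 0.13, adjusted p = 0.0417).

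The response to 40 ng/L was then compared between the populations, as the NBH change minus the SCO change. No member was called (edgeR 0 of 66; DESeq2 and limma voom 0; 6 at an unadjusted p under 0.05), and 0.0172% of all genes were called, with 9.17% at an unadjusted p under 0.05. selenoi had the smallest p, with 0.02 in NBH and -1.28 in SCO (difference 1.31 ± 0.45, interval 0.38 to 2.23, adjusted p = 0.352). gpx1a followed, with 0.00 in NBH and 1.10 in SCO (difference -1.10 ± 0.44, adjusted p = 0.449). The third was the transferase gstt1b, with -0.11 in NBH and 0.58 in SCO (difference -0.68 ± 0.30, adjusted p = 0.497). Differences were 0.13 for gclm (interval -0.37 to 0.64), -0.23 for gclc (-0.86 to 0.40), -0.33 for txn (-0.73 to 0.08) and -0.96 for nqo1 (-3.00 to 1.08), none of them called.

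Embryos of parents fed the methylmercury-rich diet had no member called against SCO Control (edgeR 0 of 66; DESeq2 and limma voom 0; 3 at an unadjusted p under 0.05), and 0% of all genes were called, with 5.45% at an unadjusted p under 0.05. The smallest p values belonged to selenop, gpx1a and prdx5. selenop had 100.7, 133 and 175 CPM as lowest, median and highest in SCO Hg Fed embryos, against 34.8, 102 and 113 CPM in SCO Control embryos (0.61, interval 0.07 to 1.15, adjusted p = 0.766). gpx1a averaged 21.5 against 13.0 CPM (0.73, interval 0.09 to 1.37, adjusted p = 0.767), and prdx5 184 against 158 CPM (0.23, interval 0.01 to 0.44, adjusted p = 0.873). The groups overlapped for each of these genes.

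Intervals for the other named members in the Hg Fed comparison were -0.27 to 0.45 around 0.09 for gclm, -0.81 to 0.07 around -0.37 for gclc, -0.38 to 0.20 around -0.09 for txn and -0.62 to 2.48 around 0.93 for nqo1. gclc ran from 15.6 to 49.6 CPM in SCO Hg Fed embryos, against 36.02 to 48.1 CPM in SCO Control, with 4 of 6 Hg Fed embryos under every control. None of the 46 pathway genes was called by edgeR, and 1 reached an unadjusted p under 0.05.

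Between the unexposed groups, NBH Control brains had higher levels of txn, prdx4, 3 glutathione peroxidases and 10 other members than SCO Control brains: 16 of 66 members were called (24.2%; 17.4% of all genes), 15 higher and 1 lower, against 7.33% of all genes called higher and 10% lower. This difference ran with transcript length. Across the 66 members the fold change had a Spearman rho of -0.42 with length, a description over genes that share the 12 libraries, and the slopes of the NBH Control and SCO Control libraries did not overlap, so population and length trend cannot be told apart. With the trend removed 11 were called, 8 higher and 3 lower, of which 9 had been called before. Over all genes 1708 higher and 2340 lower became 1364 higher and 1337 lower. With each library's slope as a covariate 0 members were called, and 2.31% of all genes.

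The genes called with and without the length trend were txn, prdx4, gpx7, txndc9, nfe2l2a, gstt2, selenou1a and nqo1, all higher in NBH, and txnrd2.2, lower. With the slope as a covariate all of these calls were lost. Fold changes were then 0.14 for txn (adjusted p = 0.534), 0.28 for prdx4 (0.191), 0.12 for txndc9 (0.457) and 0.12 for selenou1a (0.725). They were 0.43 for gpx7 (0.171), 0.93 for gstt2 (0.259) and -0.54 for txnrd2.2 (0.157). For nfe2l2a the adjusted p was 0.0636. nfe2l2a, the NRF2 gene, had 13.7, 15.1 and 25 CPM as lowest, median and highest in NBH Control embryos, against 9.46, 11.9 and 14.9 CPM in SCO Control embryos. 4 of 6 NBH embryos were above every SCO embryo (0.54 ± 0.14, adjusted p = 0.011). Its transcript is longer than most members', at 2129 bases, and the fold change was 0.52 with the trend removed. The other 4 members of that class, nfe2l1b, nfe2l3 and both keap1 genes, had values under 0 and were not called.

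Members of both thiol systems followed. txn had 685, 718 and 825 CPM as lowest, median and highest in NBH Control embryos, against 445, 517 and 607 CPM in SCO Control embryos, without overlap (0.51 ± 0.14, adjusted p = 0.0152; 0.33 with the length trend removed). prdx4, the peroxiredoxin of the endoplasmic reticulum, had 207, 222 and 230.1 CPM against 102, 135 and 175 CPM, again without overlap (0.71 ± 0.16, adjusted p = 0.00484; 0.49 with the trend removed). Its NBH controls were tightly grouped. The NBH PCB400 embryos, with 421 to 532 CPM of txn and 130.1 to 188 CPM of prdx4, overlapped the SCO controls; both comparisons use the NBH Control embryos, so a high value in those 6 embryos enters each of them.

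gpx7, a peroxidase of the endoplasmic reticulum, ran from 6.38 to 10.6 CPM in NBH Control and from 3.80 to 5.72 CPM in SCO Control embryos (0.72 ± 0.17, adjusted p = 0.00607; 0.50 with the trend removed). txndc9, a thioredoxin-like partner of the chaperonin that folds tubulin and actin, ran from 292 to 306 CPM against 182 to 219.5 CPM (0.55 ± 0.14, adjusted p = 0.00969; 0.35 with the trend removed). selenou1a ran from 139 to 212 CPM against 97.0 to 123.3 CPM (0.62 ± 0.19, adjusted p = 0.0225; 0.43 with the trend removed). In all 3 genes every NBH control was above every SCO control; the non-overlapping members numbered 12 of 66, where 13.1% of all genes did not overlap.

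The theta-class transferase gstt2 varied more, with 9.48, 24.6 and 39.5 CPM as lowest, median and highest in NBH Control embryos, against 4.82, 8.27 and 17.4 CPM in SCO Control embryos. 5 of 6 NBH embryos lay above every SCO embryo (1.28 ± 0.38, adjusted p = 0.0201; 1.10 with the trend removed), and the call was lost without NBH Control replicate 1 or SCO Control replicate 4. nqo1 had 0.025 to 0.741 CPM with a median of 0.286 in NBH Control embryos, against 0 to 0.116 CPM with a median of 0.0611 in SCO Control embryos. At so few reads its fold change (2.43 ± 0.75, adjusted p = 0.0248) depends on the prior count of the fit, and the call was lost without NBH Control replicate 1 or SCO Control replicate 2, 3 or 4, and under limma voom.

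txnrd2.2, a copy of the gene for mitochondrial thioredoxin reductase, which recharges thioredoxin in mitochondria, ran the other way. It had 1.501, 2.02 and 2.21 CPM as lowest, median and highest in NBH Control embryos, against 3.07, 4.07 and 5.77 CPM in SCO Control embryos. All 6 NBH embryos were below all 6 SCO embryos, at 45.3% of the SCO mean (-1.14 ± 0.26, adjusted p = 0.00484; -0.95 with the trend removed). Its transcript is among the longest of the members, at 3392 bases. SCO PCB40 embryos spanned both ranges, from 1.77 to 5.56 CPM, while NBH PCB40 and NBH PCB400 embryos had medians of 2.16 and 2.05 CPM.

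**Figure D4:**
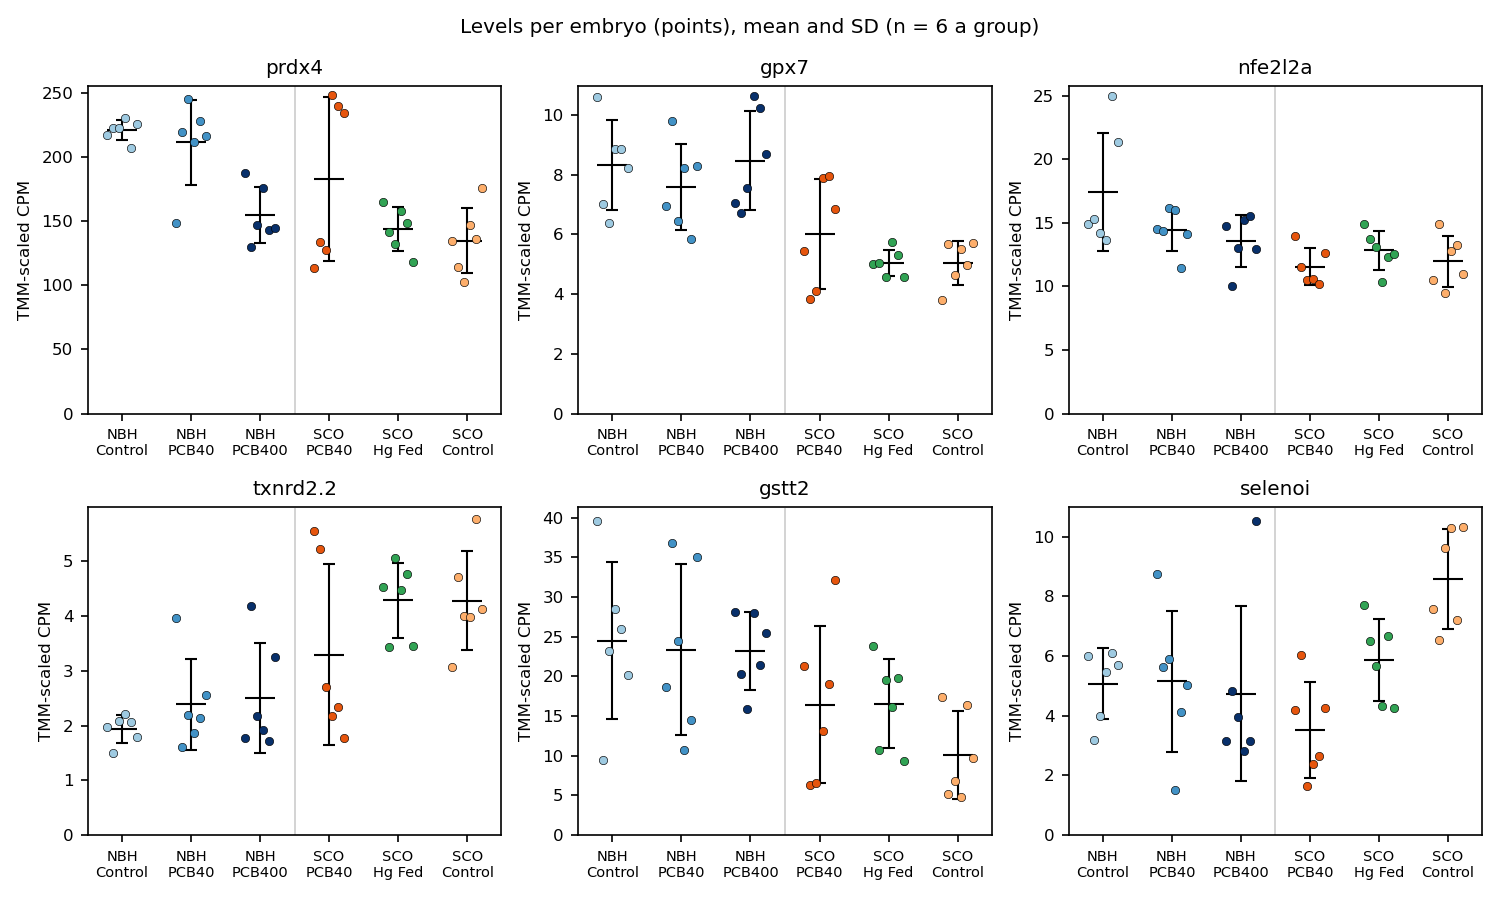
TMM-scaled CPM (vertical axes, from 0) of 6 members in every embryo; points are embryos, the dash is the mean and the bars 1 SD (n = 6). NBH controls stand above SCO controls for prdx4 and gpx7 and below them for txnrd2.2; for selenoi all 6 SCO PCB40 embryos lie below the SCO controls.

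7 further members were higher in NBH Control than in SCO Control but were not called once the length trend was removed. They were the selenoenzyme gpx1a (27.0 against 13.0 CPM on average, 1.06 ± 0.32, adjusted p = 0.0214), the secreted peroxidase gpx3 (142 against 93.3 CPM, 0.61 ± 0.17, adjusted p = 0.015), prdx5 (205 against 158 CPM, 0.38 ± 0.11, adjusted p = 0.017) and glrx3, an iron-sulfur cluster glutaredoxin (236 against 164 CPM, 0.53 ± 0.16, adjusted p = 0.0241). The rest were the nuclear selenoprotein selenoh (22.7 against 13.0 CPM, 0.80 ± 0.27, adjusted p = 0.0384) and the methionine sulfoxide reductases msrb1b (11.7 against 7.56 CPM, 0.63 ± 0.19, adjusted p = 0.0219) and msrb2 (26.0 against 18.4 CPM, 0.50 ± 0.17, adjusted p = 0.0343). With the trend removed their adjusted p values were 0.0535 for gpx1a, 0.0633 for gpx3, 0.251 for prdx5, 0.0535 for glrx3, 0.105 for selenoh, 0.0667 for msrb1b and 0.205 for msrb2. The transferase gstz1 (-0.58) and prdx2 (-0.32) were called lower in NBH only then.

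Several of these calls were also lost when 1 control embryo was left out, with adjusted p of 0.0511 to 0.129. The fold change of msrb2 was 0.46 to 0.49 in the fits that lost its call, and that of selenoh 0.60 to 0.82. selenoh was lost without any of 8 of the 12 libraries (NBH Control 1, 3 or 4, or SCO Control 1 to 5) and msrb2 without any of 8 (NBH Control 3, 4 or 5, or SCO Control 1, 2, 3, 4 or 6). gpx1a was lost without SCO Control replicate 3 or 4, msrb1b without NBH Control replicate 6 or SCO Control replicate 1, glrx3 without SCO Control replicate 1, and selenou1a without NBH Control replicate 5. The rate-limiting pair of glutathione synthesis did not pass the test: gclm averaged 38.4 CPM in NBH Control and 35.5 CPM in SCO Control (0.11, interval -0.25 to 0.47), and gclc 50.3 and 40.4 CPM (0.32, interval -0.13 to 0.76).

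**Figure D5:**
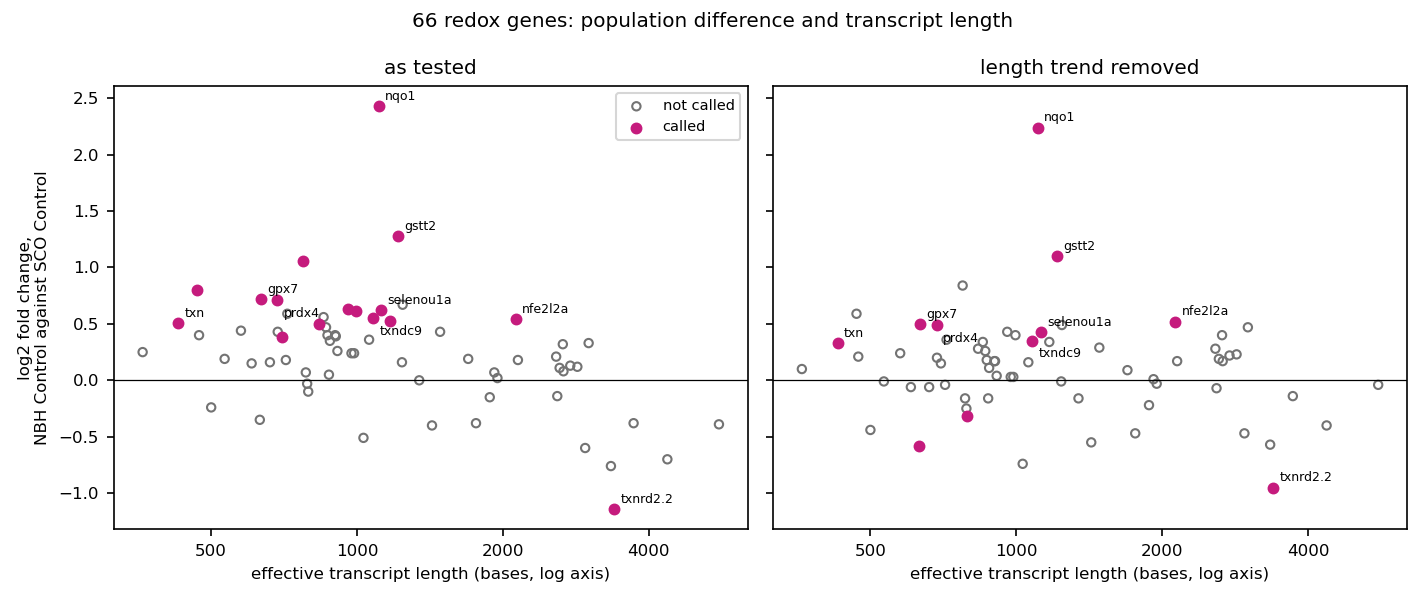
Log2 fold change of the 66 tested members, NBH Control against SCO Control (vertical axis), by effective transcript length in bases (horizontal log axis), as tested on the left and with the length trend removed on the right; filled points are called, and the 9 called both ways are named. The points slope downward on the left (rho -0.42) and less so on the right (rho -0.14).

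By role, 3 of 5 glutathione peroxidases, 2 of 3 methionine sulfoxide reductases and 2 of 6 peroxiredoxins were called higher in NBH Control, and 2 of 16 selenoproteins and selenophosphate synthetases, where 7.33% of all genes were called higher. With the length trend removed these became 1 of 5 (gpx7), 0 of 3, 1 of 6 (prdx4, with prdx2 called lower) and 1 of 16 (selenou1a), and with the slope as a covariate 0 in each. Among the 46 pathway genes 11 were called (23.9%), 9 higher and 2 lower, where 17.4% of all genes were called, 7.33% higher and 10% lower. Their values with the length trend removed are not given, so the part of that trend in these calls was not tested. srxn1 averaged 3.02 CPM in NBH Control and 1.60 CPM in SCO Control (0.91 ± 0.23, adjusted p = 0.00926), scly, which frees selenium from selenocysteine, 44.6 and 31.4 CPM (0.50 ± 0.13, adjusted p = 0.0108), and pgd 150.1 and 103.5 CPM (0.54 ± 0.14, adjusted p = 0.0114). The comparisons of NBH Control, SCO PCB40 and SCO Hg Fed with SCO Control share the SCO Control embryos. A low value in those embryos, of srxn1 or gpx1a for example, enters each comparison. Neuron markers summed to 6731 to 7241 CPM in NBH Control and 5123 to 7127 CPM in SCO Control brains, with snap25a the largest term. The single neuron markers were divided, 6 above 0 and 5 below, with 1 called higher and 1 lower. Of 9 oligodendrocyte markers 4 were above 0 and 5 below, with 1 called higher and 1 lower. In the microglia and leukocyte list 8 of 10 were above 0 and 2 below, with 1 called lower. In the skeletal muscle list 6 of 9 were above 0 and 3 below, with 1 called lower. All 6 endothelium markers were under 0, with 0 called. The part of all these markers in the result was not tested.

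The haem oxygenase hmox2b was not called between NBH Control and SCO Control (0.33, adjusted p = 0.22 by edgeR). With the length trend removed it was 0.47 (adjusted p = 0.159). With only the groups compared it was called higher in NBH Control (0.34, adjusted p = 0.0368). The gene was divided differently among its transcripts in the populations. Of its TPM, the 3269-base noncoding transcript held a median of 72.6% in NBH Control, 86.2% in NBH PCB40 and 86.2% in NBH PCB400 embryos, against 0.15% in SCO PCB40, 0% in SCO Hg Fed and 12.1% in SCO Control embryos. The 3289-base transcript held 22.6% in NBH Control, 8.56% in NBH PCB40 and 13.8% in NBH PCB400 embryos, against 44.0% in SCO PCB40, 46.1% in SCO Hg Fed and 51.1% in SCO Control embryos. Single embryos crossed over, since the noncoding share ran from 0 to 94.5% in NBH Control and from 0 to 37.3% in SCO Control. The 3 transcripts differ by few bases in length, Salmon's division between them is an estimate, and the shares were not tested.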

How the data were processed

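The authors deposited 1 Salmon table per embryo, with estimated counts and TPM for 56244 transcripts; the submitters' processing notes name Salmon 1.3.0 and edgeR 3.30.3. The genome build, library kit and strand setting are not given in the sources used here. Expected counts, deposited by the authors, were summed per RefSeq gene and rounded; the deposited TPM were summed per gene without change.

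One edgeR model (edgeR 4.0.16, R 4.3.3) of 6 group means over 36 libraries used filterByExpr, TMM factors and the two-sided quasi-likelihood test, with Benjamini-Hochberg adjustment over 23292 genes. The standard error is the log2 fold change divided by the square root of F, and 95% intervals use 30 residual degrees of freedom. The 3-read level covers counting error only. The test was first tried on simulated data with 200 genes changed. No pair of libraries within a group was identical (r of 0.927 to 0.971 over 90 pairs).

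The length slope was fitted per library over genes with a mean log2 CPM above 2, and the trend removed by lowess (span 0.3) as offsets. Alternatives were DESeq2 1.42.0, limma voom (limma 3.58.1), RLE factors, no filter, a replicate block, only the groups compared, the length trend removed, the slope as a covariate, a fold of at least 1.5, leaving out each embryo and a case-sensitive symbol match. Leaving out 6 libraries with a slope beyond 0.15 either way was added after seeing the data.

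Members, role classes and lists were chosen with earlier results of these data known. Named were all called members, nqo1, gclm, gclc and txn in each comparison, the 3 smallest p where none was called, the most abundant member of each class, and up to 3 called pathway genes per comparison. Genes near the threshold, extreme embryos and transcript splits (sephs1, gpx1a, txndc12, glrx5, hmox2b) were chosen after their values were seen. Genes were matched to the RefSeq table of assembly MU-UCD_Fhet_4.1, all 56244 transcripts by accession; no coordinates or sequences are printed.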

Additional observations from a re-analysis of the deposited data

Results flagged for a closer look

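Of 150 combinations of a named member and a group tested, 15 had 1 embryo far from the other 5 of its group by Dixon's criterion (its gap to the next embryo over the 95% critical share of the group's range), which chance gives about 1 time in 20. Of the 15, 4 were the same embryo: NBH PCB40 replicate 1 had 145 CPM of prdx5, 135 of glrx3, 148 of prdx4 and 186 of txndc9, where the next lowest embryos of the group had 177, 235, 212 and 285 CPM. The same embryo had a length slope of 0.151, the only positive one among the NBH PCB40 libraries.

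Other embryos stood high in their group. gclm reached 53.2 CPM in NBH PCB40 replicate 5 and selenop2 3.66 CPM in the same embryo. gpx1a reached 35.9 CPM in NBH PCB40 replicate 2 and 26.2 CPM in SCO Control replicate 2. In NBH PCB400, selenoi reached 10.5 CPM in replicate 6, nqo1 3.2 CPM in replicate 5 and selenoh 27.9 CPM in replicate 4. sephs1 reached 146 CPM in NBH Control replicate 2, and msrb2 26.5 CPM in SCO Control replicate 5. Low embryos were SCO Hg Fed replicate 6 for gclm (26.5 CPM) and NBH PCB400 replicate 2 for gclc (22 CPM).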

How the results depend on the processing

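The number of members was the same with a case-sensitive match. Members called between NBH PCB400 and NBH Control numbered 4; they were 10 with DESeq2, 8 with the replicate block, 2 with the slope as a covariate, and 7 both without the 6 libraries of steep slope (added after seeing the data) and with only the groups compared. Between NBH PCB400 and NBH PCB40 the 3 became 8, 1, 6 and 1 with DESeq2, the covariate, the steep libraries left out and only the groups compared. For SCO PCB40 the 1 became 3 with DESeq2 or the steep libraries left out, 2 with limma voom or RLE factors, 2 with the covariate (selenof and selenot2, with selenoi lost), and 0 with only the groups compared. Between the controls the 16 became 0 with the covariate, 26 with the steep libraries left out or only the groups compared, and 10 at a fold of at least 1.5. In these 4 comparisons, in order, the covariate called 2.14%, 1.59%, 3.25% and 2.31% of all genes. With the steep libraries left out 5.96%, 6.68%, 6.85% and 25.9% of all genes were called. For the other alternatives named here, and for fits that left out 1 embryo, that share is not given. The cause of these shifts was not tested. DESeq2 gave no adjusted p for 1 to 5 members per comparison. Counts of 0 for NBH PCB40, SCO Hg Fed and the difference between populations stayed at 0 in every alternative. Leaving out 1 embryo gave 1 to 6, 0 to 14, 0 to 2 and 11 to 17 members in the 4 comparisons above, in that order.

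Of the 24 calls, 3 were kept with the slope as a covariate, 16 with the trend removed, and 22 to 24 with DESeq2, limma voom, RLE factors, no filter, the block or the steep libraries left out. With the replicate block the call of gpx4a between the NBH doses was lost (-1.51, adjusted p = 0.0516). With only the groups compared 19 of 23 were kept, and 9 of 24 were kept in every fit that left out 1 embryo. Signs changed only for values that were not called. nqo1 in NBH PCB40 was -0.11 without the steep libraries and -0.07 to 0.62 leaving out 1 embryo. gclc between the NBH doses was 0.02, 0.17 and 0.04 with limma voom, the covariate and the steep libraries left out, and -0.14 to 0.13 leaving out 1 embryo. In SCO PCB40 with the covariate gclc was -0.15 and txn -0.12; gclc was -0.04 to 0.07 leaving out 1 embryo. The gclm difference between populations was -0.02 to 0.23 leaving out 1 embryo, lowest without NBH PCB40 replicate 5.

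The labels do not say that replicate numbers pair the embryos. For that reason the main model did not use the numbers as pairs. Deviations of the same number correlated at -0.29 to 0.36 (median 0.01, 90 pairs), and those of different numbers at -0.35 to 0.42 (median 0, 450 pairs). Yet 14 of 36 embryos were closest to their own number, where 6 would be if numbers carried nothing. A factor shared by replicate number therefore remains possible, and its source was not tested. Among the tested members depth limits nqo1, keap1b, selenop2 and selenol, which had at most 3 reads in 8, 4, 1 and 1 libraries. keap1a was also scarce, with 541 reads in all, but had more than 3 in every library.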
